A study of Mus musculus with 12 samples.

Results

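The Ly6 family surface genes described here are Ly6a, Ly6c1, Ly6c2, Ly6e, Ly6i and Ly6h, 6 of the 78298 gene identifiers counted in mouse lung. They were taken by gene symbol. They were chosen by their measured log2 differences between HDM and VEH tumours, which were known beforehand, so those values are given as a description. Of the 6, 5 passed the filter on low counts, and Ly6h, with 16 counts in 12 libraries, did not.

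RNA was sequenced from 12 libraries, 3 for each of VEH tumours, HDM tumours, VEH normal lung and HDM normal lung. The tumours are labelled LLC, and the normal tissue is lung dissected next to a tumour, so the normal lung of both treatments comes from tumour-bearing animals as labelled. HDM is house dust mite, given chronically according to the series text. VEH and LLC are used as labelled, and strain, age, dose and number of animals are not given in the sources used here. Nothing in the labels says that libraries of 1 group came from separate animals, so p-values measure the spread between these libraries.

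Library names share a prefix between 1 normal and 1 tumour library. Whether the 2 libraries of a prefix came from 1 animal is not given in the sources used here. The main fit did not pair them, so its p-values treat all libraries as independent. For 2 of the 6 prefixes the treatment labels of the pair conflict: normal VEH 2 shares a prefix with tumour HDM 2, and normal HDM 3 with tumour VEH 3. The labels were kept as given, and values without these 4 libraries, or with the treatment labels of the 2 normal libraries exchanged, are given beside several of the results. Library totals were 20608682 to 32765364 counts. Summed over 10 alveolar epithelial markers, the normal lung libraries stood at 18206 to 43358 CPM (TMM-scaled counts relative to the library total), the VEH tumours at 2294 to 8874, tumour HDM 1 and 2 at 2434 and 2496, and tumour HDM 3 at 38.8. Cell cycle markers were higher in tumours: 10 of 10 rose under VEH, with a median log2 fold change of 3.29, and 10 of 10 under HDM, with 4.17.

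Ly6 proteins are small, cysteine-rich proteins with a fold of finger-like loops, and most are held on the outer face of the cell membrane by a glycosylphosphatidylinositol (GPI) lipid anchor. Ly6a encodes stem cell antigen Sca-1, found on blood stem cells, activated lymphocytes and endothelium. Ly6c1 and Ly6c2 encode the Ly6C antigen, whose high level marks inflammatory monocytes, with Ly6c1 also found in endothelium. Ly6e is expressed in many cell types and is known for acting on the entry of viruses, Ly6i is a less studied myeloid member, and Ly6h is known from the nervous system. Several of these genes, Ly6a, the Ly6C genes and Ly6e among them, are known to be induced by interferons.

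All 6 genes lie on chromosome 15 of GRCm39 (coordinates from GENCODE M39). Ly6e (ENSMUSG00000022587, plus strand) spans 74826860 to 74847454, and Ly6i (ENSMUSG00000022586, minus strand) spans 74851383 to 74855279. Ly6a (ENSMUSG00000075602, minus strand) spans 74863840 to 74869880, Ly6c1 (ENSMUSG00000079018, minus strand) 74915847 to 74920686 and Ly6c2 (ENSMUSG00000022584, minus strand) 74980003 to 74988467. Ly6h (ENSMUSG00000022577, minus strand) lies apart from them at 75424894 to 75439354.

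The coding sequences show how alike the members are, which bears on how surely reads can be assigned to each. Ly6c1 and Ly6c2 shared 384 of 393 coding bases (97.7%) and Ly6a and Ly6i 86.3%, while Ly6e shared 58.9% with Ly6a. The first 120 coding bases are shown 5′ to 3′, from the GENCODE M39 transcripts, with capitals at the 6 positions where the 2 genes of a pair differ. The first pair is Ly6c1 and Ly6c2.
Ly6c1: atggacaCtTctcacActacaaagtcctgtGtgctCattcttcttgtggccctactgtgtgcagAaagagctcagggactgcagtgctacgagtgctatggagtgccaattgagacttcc
Ly6c2: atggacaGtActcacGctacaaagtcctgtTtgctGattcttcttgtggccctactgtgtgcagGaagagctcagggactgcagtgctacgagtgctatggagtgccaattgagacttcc
The second pair is Ly6a and Ly6i.
Ly6a: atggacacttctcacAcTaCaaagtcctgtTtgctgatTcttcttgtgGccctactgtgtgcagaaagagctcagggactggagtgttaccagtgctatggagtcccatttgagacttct
Ly6i: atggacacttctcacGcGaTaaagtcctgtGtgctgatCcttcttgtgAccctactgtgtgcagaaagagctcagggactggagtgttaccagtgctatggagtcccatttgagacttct

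A read of 150 bases, the length in the labels, fits both genes at 39 of the 939 positions along the Ly6c1 transcript (4.15%) and at 39 of 688 along Ly6c2 (5.67%). No such shared window was found for Ly6a, Ly6i, Ly6e or Ly6h among the family genes compared. How reads that fit more than 1 gene were counted is not given in the sources used here, so the split between Ly6c1 and Ly6c2 is uncertain. These are shares of positions, not of counts. Normal VEH 1 had 5513 counts for Ly6c1 and 68 for Ly6c2, so a small share of Ly6c1 reads could weigh heavily on Ly6c2. Genes on the opposite strand overlap Ly6a (Gm28068, 324 counts against 90221 for Ly6a) and Ly6e (Gm62552, 1893 against 296502). Whether the counting used the strand is not given either.

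Upstream sequence was at hand for Ly6c1 and Ly6c2, the pair with nearly the same coding sequence and different levels. The 250 bases before 1 start site of each gene, the first of 2 entries listed for it, are shown 5′ to 3′ on the minus strand. They come from RefSeq on GRCm38.p6, at chr15:75048838-75049087 for Ly6c1 and chr15:75111972-75112221 for Ly6c2.
Ly6c1 upstream: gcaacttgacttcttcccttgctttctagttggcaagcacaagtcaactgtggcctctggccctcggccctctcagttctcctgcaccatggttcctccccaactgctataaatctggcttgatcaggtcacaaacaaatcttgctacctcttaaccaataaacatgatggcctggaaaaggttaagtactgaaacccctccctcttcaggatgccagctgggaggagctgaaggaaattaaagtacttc
Ly6c2 upstream: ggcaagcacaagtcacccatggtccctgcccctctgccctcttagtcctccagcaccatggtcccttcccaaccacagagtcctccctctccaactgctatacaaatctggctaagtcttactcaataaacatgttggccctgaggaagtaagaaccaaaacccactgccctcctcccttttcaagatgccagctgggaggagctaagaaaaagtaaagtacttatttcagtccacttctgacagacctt
Over 216 aligned bases, 164 (75.9%) were identical, a lower share than in the coding sequence. Neither window held the letters of a gamma-activated site (GAS, TTCNNNGAA, in 7.18% of 27025 upstream windows of the same length) or of an interferon-stimulated response element (ISRE, searched as TTTC and TTTC with 2 bases between them, in 3.04%), on either strand. No capitals are used, since no match was found. The other entry of each gene was not searched.

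Ly6a was high in normal lung of both treatments and in VEH tumours, and low in all HDM tumours. Its level was 399.7, 322 and 440.0 CPM in normal VEH 1, 2 and 3, and 504, 445 and 338 CPM in normal HDM. In the VEH tumours it was 264, 331 and 294 CPM, and in the HDM tumours 61.7, 84.5 and 31.6 CPM. The HDM tumours lay below every other library, the lowest being tumour HDM 3. Ordered by mean, normal HDM stood at 429 ± 84.0 CPM (SD, n = 3), normal VEH at 387 ± 59.8, tumour VEH at 296 ± 33.5 and tumour HDM at 59.3 ± 26.5, and the libraries of the first 3 groups overlap from each group to the next.

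Ly6c1 was lower in both kinds of tumour than in normal lung, and lowest in the HDM tumours. It was 226, 292 and 210.1 CPM in normal VEH and 345, 218 and 221 CPM in normal HDM. The VEH tumours had 107, 125 and 103 CPM and the HDM tumours 35.3, 56.3 and 23.9 CPM. The means were 261 ± 72.8 CPM in normal HDM, 243 ± 43.3 in normal VEH, 111 ± 12.0 in tumour VEH and 38.5 ± 16.4 in tumour HDM (SD, n = 3). The 2 normal groups overlap, and neither tumour group overlaps with another group.

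Ly6c2, the copy known from monocytes, was far less abundant and varied more between libraries of 1 group. It was 2.79, 27.6 and 6.23 CPM in normal VEH and 47.2, 26.3 and 4.90 CPM in normal HDM. The VEH tumours had 30.8, 9.11 and 21.0 CPM and the HDM tumours 10.8, 11.3 and 1.76 CPM. All 4 groups overlap with each other, with means of 26.1 ± 21.2 CPM in normal HDM, 20.3 ± 10.9 in tumour VEH, 12.2 ± 13.4 in normal VEH and 7.96 ± 5.37 in tumour HDM (SD, n = 3). Per kilobase, the level of Ly6c1 was 5.32 to 132 times that of Ly6c2, so counts of the 2 genes were not in 1 ratio across libraries. The deposited lengths behind these ratios are 1677 and 2740 bases, against 3305 and 3056 exonic bases in GENCODE M39, with which each ratio would be smaller.

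Ly6e had the most counts of the family. It was 959.6, 1177 and 886 CPM in normal VEH and 1383, 1309 and 801 CPM in normal HDM. The VEH tumours had 1263, 931 and 1359 CPM and the HDM tumours 542, 372 and 491 CPM. Tumour VEH (1184 ± 225 CPM), normal HDM (1164.5 ± 317) and normal VEH (1007 ± 151) overlap, and the HDM tumours (468 ± 87.4; SD, n = 3) lay below all of them.

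Ly6i followed neither tissue nor treatment alone. It was 1.19, 15.7 and 2.74 CPM in normal VEH and 31.2, 52.4 and 2.28 CPM in normal HDM, a wide spread within both groups. The VEH tumours were close together at 15.3, 16.1 and 20.9 CPM, and the HDM tumours had 2.75, 2.39 and 0.546 CPM. The means were 28.6 ± 25.2 CPM in normal HDM, 17.4 ± 3.01 in tumour VEH, 6.53 ± 7.95 in normal VEH and 1.90 ± 1.18 in tumour HDM (SD, n = 3), and among these only the 2 tumour groups were apart from each other.

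**Figure D1:**
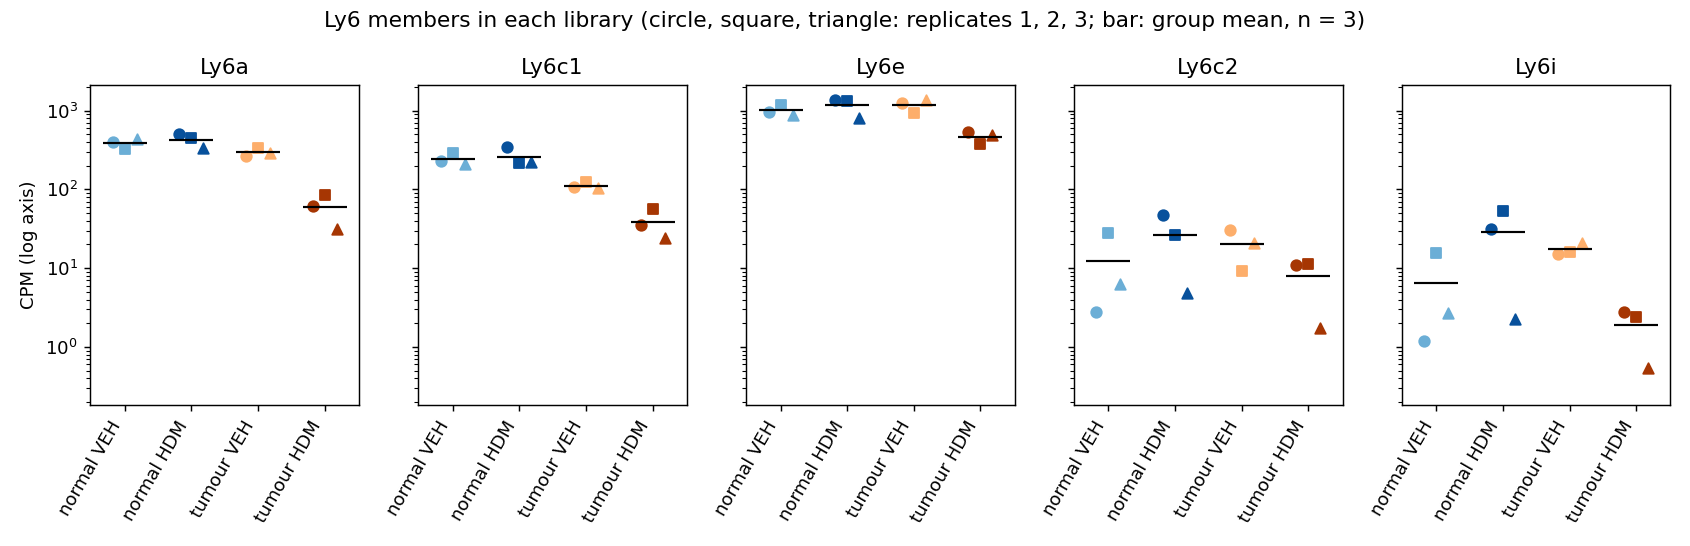
Level of each of the 5 tested Ly6 genes (CPM, log axis) in each of the 12 libraries, by group; circles, squares and triangles are replicates 1, 2 and 3, and the bar is the group mean. Ly6a and Ly6e of the HDM tumours lie below every other library, while the normal libraries of Ly6c2 and Ly6i are spread widely within each treatment.

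Ly6h was at or near 0. Its counts were 2, 0 and 2 in normal VEH, 0, 2 and 0 in normal HDM, 0, 10 and 0 in tumour VEH, and 0 in every HDM tumour. With a floor of 3 counts, which understates the counting error, a count of 0 allows a level of up to 0.0910 to 0.138 CPM, depending on the library. No difference was therefore detectable at this depth. Of 10 nervous system markers, the 10 counts of Ly6h in tumour VEH 2 came with a summed level of 40.3 CPM, against 41.9 and 20.1 in the other VEH tumours. That list held 5 tested genes, of which 1 rose and 3 fell in tumours under each treatment, and 1 and then 2 fell when the 4 libraries of conflicting prefixes were left out.

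Per kilobase of the deposited gene length, Ly6a and Ly6e were the most abundant members. In normal VEH, Ly6a stood at 321 and Ly6e at 266 CPM per kb, followed by Ly6c1 at 145, Ly6i at 5.65 and Ly6c2 at 4.45. In the HDM tumours the order was Ly6e (124 CPM per kb), Ly6a (49.2), Ly6c1 (23.0), Ly6c2 (2.90) and Ly6i (1.64). Of the summed level of the 6 members, Ly6a made up 34.5% to 50.1% in the normal libraries, 34.2% to 44.8% in the VEH tumours and 15.3% to 33.7% in the HDM tumours. Ly6e made up 32.1% to 40.1%, 40.2% to 52.1% and 47.2% to 75.7% of it in the same order. These orders rest on the lengths used: the deposited length of Ly6a is 1205 bases, against 4646 exonic bases in GENCODE M39, and those of Ly6e are 3782 and 4553.

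Tumours were first compared with normal lung under VEH, a comparison whose 6 libraries the choice of members used in part. Ly6c1 fell, with a log2 fold change of -1.12 ± 0.29 (SE; edgeR quasi-likelihood test, adjusted p = 0.0130), and the 2 groups did not overlap. The other 4 tested members did not pass. Ly6a differed by -0.39 ± 0.30 (edgeR adjusted p = 0.313), Ly6e by 0.23 ± 0.24 (0.453), Ly6c2 by 0.73 ± 0.99 (0.573) and Ly6i by 1.41 ± 1.07 (0.307). Without normal VEH 2 the values were 2.17 for Ly6c2 and 3.15 for Ly6i, and without normal VEH 1 they were 0.26 and 0.92, and none of these passed. Of all 22190 genes tested, 20.6% were called lower and 18.2% higher, so 1 of 5 members called lower is a share near the background. The median log2 fold change was 0.23 over the 5 members and -0.11 over all genes.

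The call of Ly6c1 was lost without tumour VEH 1 (-0.99) or tumour VEH 3 (-0.98), and without the 4 libraries of conflicting prefixes (-0.81 ± 0.30, edgeR adjusted p = 0.0900). With the treatment labels of the 2 normal libraries exchanged, Ly6i rose by 3.07 ± 0.60 (edgeR adjusted p = 0.00200) and Ly6c2 by 2.13 ± 0.66 (0.0213); Ly6i also passed without the 4 libraries (3.10 ± 0.79, 0.0350) and with the prefix as a block (3.50).

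Tumours under HDM were lower than normal lung under HDM in 4 of the 5 tested members. Ly6a fell by 2.86 ± 0.32 on the log2 scale (7.24-fold; edgeR quasi-likelihood test, adjusted p = 0.000136) and Ly6c1 fell by 2.76 ± 0.31 (6.79-fold, adjusted p = 0.000137). Ly6e fell by 1.31 ± 0.24 (2.49-fold, adjusted p = 0.00153), and for all 3 genes every HDM tumour lay below every normal HDM library. How many of all genes separate in this way is not given here, so the separation describes these genes only. Ly6i fell by 3.92 ± 1.19 (edgeR adjusted p = 0.0185), although its libraries overlap: normal HDM 3, at 2.28 CPM, lay below tumour HDM 1 and 2. Ly6c2 differed by -1.72 ± 1.01 (edgeR adjusted p = 0.177) and did not pass.

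Over all genes, 28.9% were called lower and 23.0% higher in this comparison. The median log2 fold change was -2.76 over the 5 members and -0.08 over all genes. The HDM tumours also entered the comparison known when the members were chosen. The p-values of the members, their count and their median are therefore not independent of the choice. Ly6a, Ly6c1 and Ly6e were called in 21 of 21 alternative analyses, which share this dependence. Without the 4 libraries of conflicting prefixes the same 4 members were called, and with the exchanged labels Ly6c2 passed too (-2.08 ± 0.65, edgeR adjusted p = 0.0199). Ly6i was called in 17 of 21 and lost its call with no filter on low counts (-3.91) and without normal HDM 2 (-3.15), tumour HDM 2 (-4.0) or tumour HDM 3 (-3.33).

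In normal lung, no member passed between HDM and VEH. The log2 differences were 0.15 ± 0.30 for Ly6a, 0.11 ± 0.29 for Ly6c1 (edgeR adjusted p = 1 for both), 0.21 ± 0.24 for Ly6e (0.998), 1.10 ± 0.99 for Ly6c2 (0.972) and 2.13 ± 1.09 for Ly6i (0.888). Single libraries moved the last 2: Ly6c2 was 0.35 without normal HDM 1 and 2.54 without normal VEH 2, and Ly6i was 1.35 without normal HDM 2 and 3.87 without normal VEH 2, and none of these passed. Of all genes 0% were called by edgeR, 1230 had an unadjusted p below 0.05, and DESeq2 called 43. The median was 0.21 over the 5 members and -0.01 over all genes.

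Within these normal libraries, Ly6i, Ly6c2 and Ly6e sorted by the name prefix and not by the treatment label. Ly6i was 15.7 to 52.4 CPM in the 3 normal libraries that share a prefix with an HDM tumour (normal VEH 2, HDM 1 and HDM 2) and 1.19 to 2.74 in the 3 that share one with a VEH tumour. Ly6c2 had a mean of 33.7 ± 11.7 CPM in the former and 4.64 ± 1.73 in the latter (SD, n = 3), and Ly6e 1290 ± 105 and 882 ± 79.4, without overlap. Ly6a (424 ± 92.8 and 393 ± 51.1) and Ly6c1 (285 ± 64.0 and 219 ± 8.28) overlap between these sets. The share of all genes that separate these sets is not given here, so the sorting is not read as particular to the members. With the 2 conflicting labels exchanged, Ly6i rose under HDM in normal lung by 4.00 ± 0.62 on the log2 scale (edgeR adjusted p = 0.00958), Ly6c2 differed by 2.86 ± 0.67 (0.0521), and 576 genes were called in all.

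Chil3, a chitinase-like protein of alternatively activated macrophages, is shown beside the members because it separated the normal libraries in the same way; it was chosen after its values were seen. It stood at 7313, 7705 and 5271 CPM in normal VEH 2, HDM 1 and HDM 2, and at 95.0, 203 and 75.3 CPM in normal VEH 1, VEH 3 and HDM 3. Summed neutrophil markers reached 879 CPM in normal VEH 2 and 613 in normal HDM 1, and 92.2 in normal HDM 2, against 20.9 to 56.2 in the other 3. Summed B and plasma cell markers were 1471, 3226 and 1118.5 CPM in the former 3 normal libraries and 116, 70.7 and 118 in the latter. Classical monocyte markers summed to 9289, 12211 and 12462 CPM in the former and to 2669, 6565 and 4581 in the latter. Their mean log2 CPM overlapped, at 6.05, 6.01 and 4.68 against 4.74, 4.00 and 4.66. The part of these cells in the levels of Ly6i, Ly6c2 and Ly6e was not tested. Normal VEH 2 also had 227 CPM of summed cell cycle markers and 2204 of endothelial markers. The other normal libraries had 47.0 to 65.8 and 3700 to 4742.

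**Figure D2:**
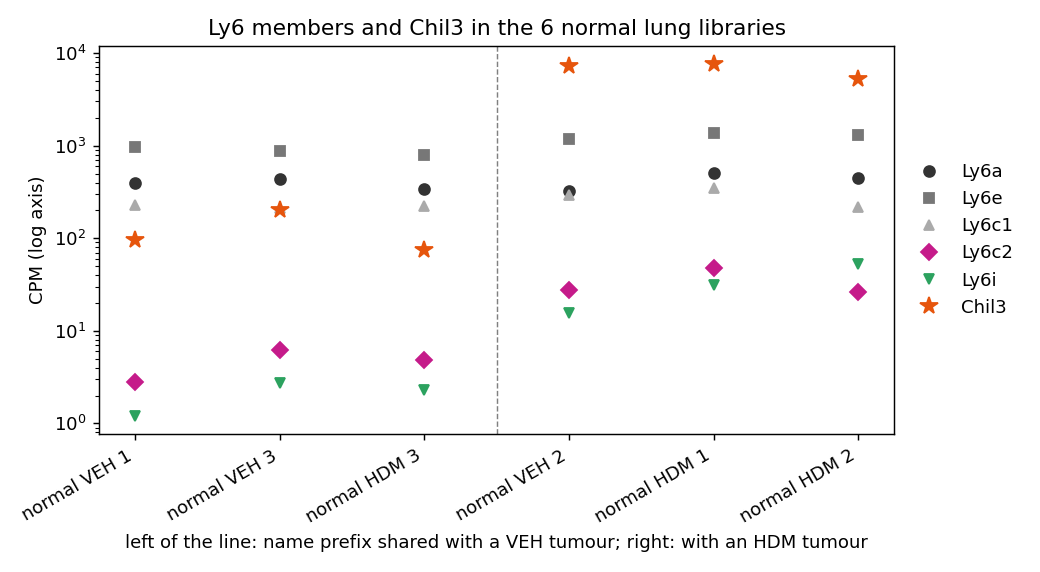
Level (CPM, log axis) of the 5 tested Ly6 genes and Chil3 in the 6 normal lung libraries, ordered by whether the library name shares its prefix with a VEH tumour (left of the dashed line) or an HDM tumour (right). Ly6i and Ly6c2 lie higher on the right, as Chil3 does, while Ly6a and Ly6c1 overlap between the sides.

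HDM and VEH tumours differed most in Ly6a and Ly6i among the members, a description since the members were chosen with this comparison known. The log2 difference was -2.32 ± 0.31 for Ly6a (5.0-fold lower under HDM), -3.20 ± 1.15 for Ly6i (9.21-fold lower), -1.53 ± 0.30 for Ly6c1, -1.34 ± 0.24 for Ly6e and -1.35 ± 1.00 for Ly6c2 (SE). For 4 of the 5, all but Ly6c2, every HDM tumour lay below every VEH tumour, beside 10.7% of all genes. The number of members past the threshold was 1 (Ly6a) in edgeR, beside 0.0856% of all genes called lower. It was 4 in DESeq2, beside 1056 of 22190 genes called lower, and 3 in edgeR with the exchanged labels, beside 55 of 22190. With the prefix as a block, or without the 4 libraries of conflicting prefixes, it was 0, as for all genes. Nothing is read from these counts, since the members were chosen with this comparison known. The medians were -1.53 over the 5 members and -0.03 over all genes.

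As a difference between the treatments in the tumour and in normal lung, the values were -2.47 ± 0.43 for Ly6a, -1.64 ± 0.41 for Ly6c1, -1.55 ± 0.34 for Ly6e, -2.45 ± 1.41 for Ly6c2 and -5.33 ± 1.59 for Ly6i (log2, SE). These also hold the comparison used for the choice and are given without a test. Over all genes, 0% passed this interaction test in edgeR, 2084 had an unadjusted p below 0.05 and DESeq2 called 222.

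**Figure D3:**
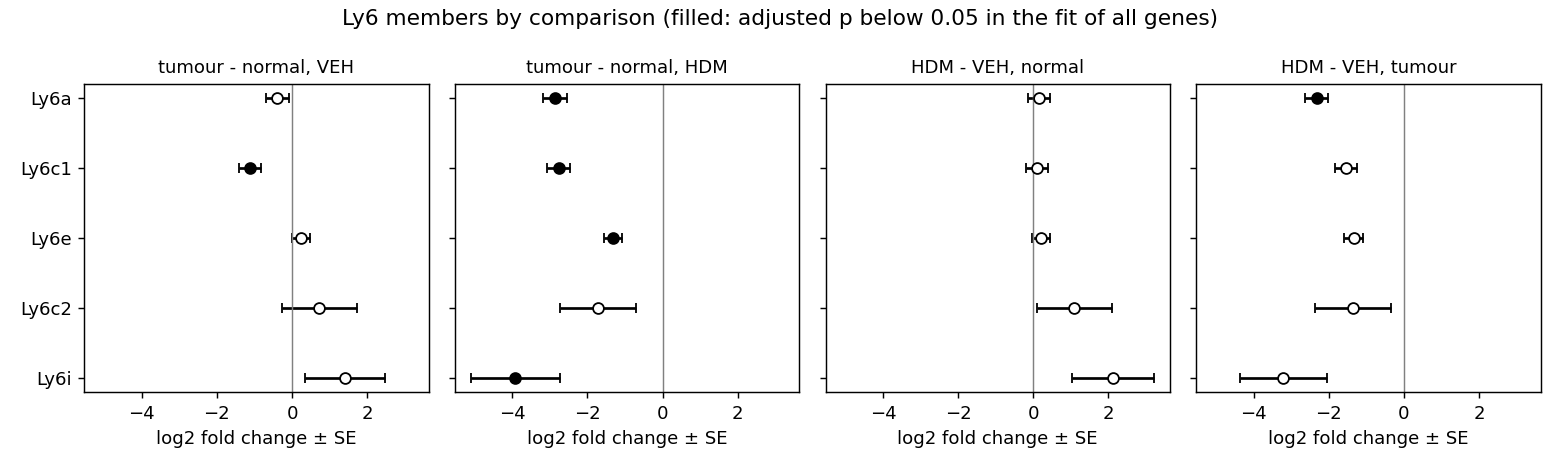
Log2 fold change and its SE for the 5 tested Ly6 genes in 4 comparisons; filled points passed an adjusted p of 0.05 in the edgeR fit of all genes. Ly6a, Ly6c1, Ly6e and Ly6i are filled on the left of 0 for tumour against normal lung under HDM. None is filled for HDM against VEH in normal lung. The last panel is a description, and nothing is read from its filled point, since the members were chosen with that comparison known.

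Among themselves, the members formed no single profile. With each profile centred on its mean over the 12 libraries, Ly6a and Ly6c1 were the closest pair, with a root mean square difference of 0.40 in log2 CPM. Ly6c2 and Ly6i differed by 0.95, and Ly6e differed by 0.82 from Ly6a and by 0.84 from Ly6c1. The largest distance, 1.69, was between Ly6c1 and Ly6i. Ly6c1 and Ly6c2, the pair most alike in sequence, differed by 1.41.

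By the same measure over 12 libraries, the genes most like each member were taken from 11000 protein-coding genes. All members and the other listed genes of the Ly6 and uPAR family were left out of these candidates. For Ly6a the nearest candidates were Isg20 (0.376), H2-Q4 (0.377) and H2-K1 (0.409), against a median of 1.37 over all candidates. The member Ly6c1, at 0.404 from Ly6a, was nearer than H2-K1. Tmem176b (0.36), Eeig1 (0.36) and Tent5a (0.38) were nearest to Ly6c1, where the median was 1.31. Rinl (0.24), Tmco4 (0.29) and Insig1 (0.30) were nearest to Ly6e (median 0.81). For Ly6c2 the nearest were Clec7a (0.44), Cd274 (0.53) and Acp5 (0.54; median 1.51), and for Ly6i Itgax (0.84), Acp5 (0.88) and Bcl2a1d (0.96; median 2.06).

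Other genes of the Ly6 and uPAR family fell or were not called in tumours under both treatments. Of 34 such genes in the table, 22 were tested, 7 fell and 0 rose under VEH, and 17 fell and 0 rose under HDM, beside the 20.6% and 28.9% of all genes called lower. Without the 4 libraries of conflicting prefixes 4 fell under VEH and 7 under HDM of 23 tested, a count chosen, like those for the lists below, after seeing the data, and leaving out each library in turn gave 4 (without tumour VEH 3) to 10 and 11 (without tumour HDM 2) to 16. Their median log2 fold changes were -2.03 under VEH and -3.80 under HDM, or -3.76 with genes at 0 counts in every HDM tumour placed at their bound. Gpihbp1, which carries lipoprotein lipase across the capillary wall, fell by 2.59 ± 0.34 under VEH and by 3.02 ± 0.34 under HDM (edgeR adjusted p = 0.000570 and 0.000151). Its level was 133 ± 41.8 CPM in normal VEH, 103 ± 22.5 in normal HDM, 22.0 ± 6.34 in tumour VEH and 12.7 ± 4.35 in tumour HDM (SD, n = 3).

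Lynx1, a modulator of nicotinic acetylcholine receptors, fell by 2.22 ± 0.59 and by 3.74 ± 0.63 (edgeR adjusted p = 0.0149 and 0.00101). Slurp1, a secreted member, fell by 4.12 ± 0.86 and by 4.34 ± 0.88 (0.00466 and 0.00244). Lypd6 had 0 counts in all HDM tumours and 2.59 ± 1.5 CPM in normal HDM (SD, n = 3). A floor of 3 counts per library lies 24.6-fold below that mean. This bound is approximate, since it leaves out the spread of the mean and the floor understates the counting error. Plaur, the urokinase receptor, was not called under either treatment, with 60.2 ± 32.6, 59.8 ± 22.5, 67.8 ± 25.9 and 66.8 ± 22.3 CPM in VEH and HDM normal lung and in VEH and HDM tumours, in that order. Between HDM and VEH tumours, 0 of the 22 were called by edgeR and 1 of 20 by DESeq2, and 21 had a value below 0, with a median of -1.39 (-1.27 with genes at 0 counts at their bound).

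Genes of GPI anchor synthesis and remodelling, on which surface Ly6 proteins depend, moved in both directions. Of 30 tested, 2 rose and 10 fell in tumours under VEH (median -0.42), and 4 rose and 11 fell under HDM (median -0.18). Without the 4 libraries of conflicting prefixes 3 rose and 4 fell, and 3 rose and 5 fell, and the count that fell under VEH was 4 to 6 without normal VEH 1, tumour VEH 1 or tumour VEH 3 and under HDM 7 without tumour HDM 1. Pign, which adds a phosphoethanolamine to the anchor, rose by 0.98 ± 0.28 under VEH and by 1.73 ± 0.28 under HDM (edgeR adjusted p = 0.0191 and 0.000774). Pgap4, which adds a sugar side branch to the anchor, fell by 2.29 ± 0.63 and by 4.63 ± 0.71 (0.0169 and 0.000576). Between HDM and VEH tumours, 0 of 30 were called by edgeR and 1, lower under HDM, by DESeq2, the median was 0.06, and the summed levels overlapped at 739.6 to 848 CPM under VEH and 799 to 852 under HDM.

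Interferon genes were described because several members are known targets of this pathway. Interferons bind paired receptor chains, whose kinases of the Jak family activate Stat proteins, and these switch on target genes. Of the ligand and receptor genes, 5 of 9 were tested. The receptor chain Ifnar1 rose by 0.49 ± 0.17 in tumours under VEH and by 0.71 ± 0.17 under HDM, and Ifnar2 fell by 0.58 ± 0.20 and by 0.86 ± 0.21 (edgeR adjusted p = 0.0427, 0.00580, 0.0450 and 0.00576). Ifngr1 fell by 0.77 ± 0.21 under HDM (edgeR adjusted p = 0.0111). These are few calls and move with single libraries: without normal VEH 1, tumour VEH 1 or tumour VEH 3 none of the 5 was called under VEH, and without tumour HDM 3 none fell under HDM. When the 4 libraries of conflicting prefixes were left out, 0 of 4 were called under VEH, and 1 rose and 0 fell under HDM. Ifng, the type II interferon, had 13, 2 and 26 counts in the VEH tumours, 0, 16 and 0 in the HDM tumours, and at most 2 in any normal library.

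Of 10 genes of the signalling chain, 5 rose and 0 fell in tumours under VEH (median 0.68), and 1 rose and 1 fell under HDM (median -0.31), against 3 and 0 higher without the 4 libraries of conflicting prefixes, and 3 higher under VEH without normal VEH 1, tumour VEH 1 or tumour VEH 3. Socs1, a feedback inhibitor, rose by 1.98 ± 0.47 and Stat2 by 1.58 ± 0.45 under VEH (edgeR adjusted p = 0.00809 and 0.0199). Under HDM, Jak1 rose by 0.60 ± 0.17 and Irf9, the partner of the Stat proteins, fell by 0.92 ± 0.22 (0.0126 and 0.00606).

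Interferon target genes outside the Ly6 family rose in the VEH tumours: 16 of 22 rose and 0 fell against normal lung (median 2.14), beside 18.2% of all genes called higher. Without the 4 libraries of conflicting prefixes 5 rose, with a median of 2.15, 10 rose without normal VEH 1 or without tumour VEH 1, and 18 with the exchanged labels. Cxcl9 and Cxcl10, chemokines that attract T cells, rose by 6.43 ± 1.16 and 4.02 ± 0.87 (edgeR adjusted p = 0.00250 and 0.00589). Under HDM, 3 rose and 1 fell (median 0.17), among them Cxcl9 (3.43 ± 1.05, adjusted p = 0.0191) and Cxcl10 (2.79 ± 0.84, 0.0178), while Gbp4 fell by 1.90 ± 0.68 (0.0381). Of these HDM calls, 1 target rose without normal HDM 1 or tumour HDM 1 and 0 without normal HDM 2, and 3 fell without tumour HDM 1. Their summed level was 474 to 600.1 CPM in normal VEH, 402 to 489 in normal HDM, 1198 to 2749 in tumour VEH and 175 to 661 in tumour HDM. Between HDM and VEH tumours 0 of 22 were called by edgeR and 16 by DESeq2, all lower under HDM. DESeq2 called 1056 of 22190 genes lower there. The value was below 0 for 22 of 22, with a median of -2.07.

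**Figure D4:**
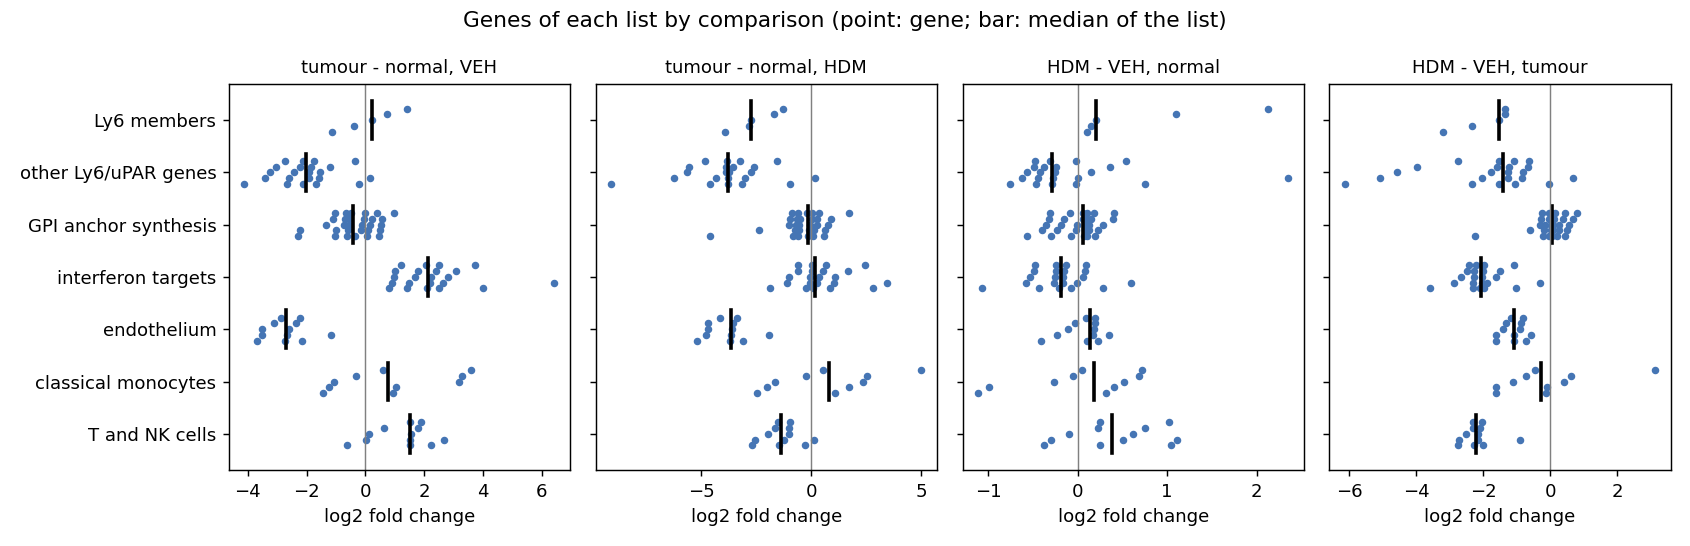
Log2 fold change of each tested gene (points) and list medians (bars) for the Ly6 members and 6 other lists in 4 comparisons, with a separate scale in each panel; genes with 0 counts in a group are drawn at their fitted value. Interferon targets lie right of 0 for tumour against normal lung under VEH, and the other Ly6/uPAR genes and endothelial markers lie left of 0 under both treatments, except Plaur.

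Cell types known to carry Ly6 proteins also differed between the groups, and in whole tissue fewer cells of a type and less RNA per cell cannot be told apart. All 12 endothelial markers fell in tumours under VEH (median -2.70) and all 12 under HDM (median -3.68), among them Ptprb with -3.70 ± 0.53 and -4.81 ± 0.56 (edgeR adjusted p = 0.000903 and 0.000178). Their summed level was 2204 to 4742 CPM in normal VEH, 3700.1 to 4597 in normal HDM, 545 to 842 in tumour VEH and 236 to 488 in tumour HDM. The sum was lower in the VEH tumours than in normal lung, and every HDM tumour lay below every VEH tumour. Under each treatment, 12 of 12 also fell without the 4 libraries of conflicting prefixes. In HDM against VEH tumours 12 of 12 endothelial markers had a value below 0, with a median of -1.08, and 0 were called by edgeR and 1 by DESeq2. Their part in the levels of Ly6a and Ly6c1 was not tested.

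T and NK cell markers, of cells that carry Ly6a and Ly6C proteins when activated, rose in 3 of 12 genes in the VEH tumours (median 1.53; Cd8a 2.68 ± 0.83, edgeR adjusted p = 0.0278). In the HDM tumours 3 of 12 fell (median -1.38; Gzma -2.57 ± 0.41, adjusted p = 0.000698). Their summed level was 77.1 to 109 CPM in tumour VEH and 4.49 to 28.8 in tumour HDM, against 35.2 to 45.9 in normal VEH and 46.3 to 65.0 in normal HDM. Between HDM and VEH tumours 12 of 12 had a value below 0 (median -2.20). Of these, 0 were called by edgeR and 9 by DESeq2, beside 1056 of 22190 genes called lower by DESeq2. Without the 4 libraries of conflicting prefixes 0 rose under VEH and 2 fell under HDM, and 0 or 1 rose under VEH without any 1 of normal VEH 1, 2 or 3 or tumour VEH 1 or 3. No marker of the list was at 0 in a whole group, and the part of these cells in the Ly6 levels was not tested.

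Classical monocyte markers moved in both directions. Under VEH 4 of 10 rose in tumours and 0 fell (median 0.77; Vcan 3.6 ± 1.06, edgeR adjusted p = 0.0223). Under HDM 3 rose, Vcan among them (5.0 ± 1.13, edgeR adjusted p = 0.00456), and 3 fell that are not named here (median 0.80). Vcan therefore does not stand for the list. Without tumour HDM 3, 3 rose and 1 fell. The summed level overlapped between tumour VEH (2449 to 3976 CPM) and tumour HDM (2198 to 4225), where the median difference was -0.29. Their part in the level of Ly6c2 was not tested.

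The remaining marker lists are given as counts, under VEH and then under HDM. Of 8 neutrophil markers 2 fell and then 0, with 0 higher in both, and of 8 B and plasma cell markers 6 fell in each. Of 9 fibroblast markers 4 rose and 3 fell in each, with summed levels of 6525 to 14374 CPM in tumour VEH and 12743 to 15049 in tumour HDM. Of 6 plasmacytoid dendritic cell markers 1 rose and 1 fell in each, and of 10 alveolar epithelial markers 1 fell and then 10. Without the 4 libraries of conflicting prefixes the counts that fell were 0 and then 4 of 7 neutrophil markers, 0 and then 7 B and plasma cell markers, and 1 and then 1 alveolar marker. The 2 neutrophil markers lower under VEH became 0 without any 1 of tumour VEH 1, 2 or 3, and 0 lower and 1 higher without normal VEH 2, and DESeq2 called 4 and then 2 of 7 lower. Leaving out tumour VEH 1 or 3 gave 2 B and plasma cell markers lower under VEH, and leaving out tumour HDM 1 or 2 gave 5 alveolar markers lower under HDM. Tumour HDM 3, with the lowest alveolar sum, also had the lowest Ly6a, Ly6c1, Ly6c2 and Ly6i of the 12 libraries, while Ly6e was lowest in tumour HDM 2. Without tumour HDM 3, the log2 difference between HDM and VEH tumours was -1.99 ± 0.24 for Ly6a, -1.26 ± 0.29 for Ly6c1, -1.35 ± 0.31 for Ly6e, -0.85 ± 1.03 for Ly6c2 and -2.73 ± 1.28 for Ly6i (SE).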

How the data were processed

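The authors deposited 1 table of raw read counts per Ensembl gene, with gene lengths (unit: bases), per the file headers. The submitters' processing notes name Trim Galore, STAR, featureCounts, Subread and mm39, and versions, annotation, strand setting and treatment of shared reads are not given in the sources used here. Libraries were stranded and sequenced from both ends, per the labels. Symbols, transcripts and coordinates came from GENCODE M39 (GRCm39), which holds 78168 of the 78298 identifiers. The 130 others carried 0.143% of counts. From 68.7% to 72.5% of values from 1 to 10 are even in each library, so counting floors understate the error, and the cause was not tested.

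In R 4.3.3, edgeR 4.0.16 filtered genes (filterByExpr, minimum count 10; 22190 kept), scaled libraries by TMM and fitted 1 coefficient per group to 12 libraries (robust quasi-likelihood F-test, two-sided). Benjamini-Hochberg adjustment ran over all genes, with calls below 0.05. Each SE is the absolute log2 fold change over the root of its F statistic. The fit was checked on simulated counts. Alternatives used DESeq2 1.42.0, other scalings and filters, blocks, and left-out libraries.

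Members, gene lists and tests were chosen with earlier results of these data known. All members were named. Of other lists, at most the 2 largest rises and 2 largest falls among called genes, or any tested Ly6/uPAR gene, were named. Ifng, named for its role, and Chil3 fall outside this rule and were chosen after their values were seen. Genes most like a member needed an average log2 CPM of at least 3.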

Additional observations from a re-analysis of the deposited data

How the results depend on the processing

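Ly6a, Ly6c1 and Ly6e stayed lower in HDM tumours than in normal HDM lung, and called, in 21 of 21 alternatives. The log2 ranges were -3.24 to -2.42, -3.15 to -2.38 and -1.46 to -1.06. Since the HDM tumours entered the choice of members, these calls are not independent of it. Ly6c1 stayed called lower in VEH tumours in 17 of 21 (-1.22 to -0.81) and lost its call with the prefix as a block (-0.81), without the 4 libraries of conflicting prefixes (-0.81) and without tumour VEH 1 or 3. In normal lung, the HDM difference changed sign for Ly6c1 without normal HDM 1 (-0.15; leaving out each library in turn gave -0.15 to 0.26) and for Ly6e with the prefix block (-0.40); neither passed, and the cause was not tested.

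Of all genes, 8624 were called between VEH tumours and normal lung, 5603 without the 4 libraries and 5733 to 9070 leaving out each library in turn. Between HDM tumours and normal lung the count was 11512 (7900 to 12409 over all alternatives). In normal lung HDM against VEH gave 0, 43 with DESeq2 and 576 with the exchanged labels. HDM against VEH tumours gave 21, and 8 with library totals only, 52 with no filter, 53 where each library had 10 counts or more, 1311 with DESeq2, 66 with exchanged labels, 0 with the prefix block, 0 without the 4 libraries, and 0 to 24 leaving out each library. The interaction gave 0, 222 with DESeq2, 186 with exchanged labels and 0 to 6 leaving out each library. The cause of these shifts was not tested. Library totals in place of TMM moved the median log2 fold change of all genes from -0.11 to 0.03 under VEH and from -0.08 to 0.10 under HDM.

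With the replicate number as a block, HDM against VEH tumours gave 1 call. Ly6a lost its own (-2.38 ± 0.31), from which nothing is read, since the members were chosen with this comparison known. No other call of a member changed. Correlations of deviations were above 0.1 in 8 of 18 pairs of the same number, 3 of 6 of the same prefix and 6 of 33 of neither. Since not every same-numbered pair was above 0.1, the numbers were not taken as pairs. The prefix was used as a block in an alternative and not in the main fit, so a pairing by prefix is not accounted for there. Depth limits Ly6h. The SE of Ly6c2 and Ly6i exceeded 0.9 in every comparison of the edgeR analysis of all 12 libraries as labelled with no block, and was 0.66 and 0.60 between VEH tumours and normal lung with the exchanged labels.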
